A study of Mus musculus with 2 samples.

Results

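Of the 56605 non-control probes on the array, 9009 (15.9%) carry an Ensembl mouse transcript identifier (ENSMUST) as their name and not a RefSeq accession. They were chosen by that name alone, and they stand for 8721 transcripts, of which 8445 have 1 probe and 276 have several, up to 4. The arrays compare a glioblastoma stem cell line of the mouse, grown as neurospheres from tumours induced by a Sleeping Beauty transposon, after stable lentiviral transduction with a Gli2 shRNA or with a non-target control shRNA. Both groups therefore carry a lentivirus and an shRNA, and the labels name 1 cell line and 1 array per group and do not say how many shRNA constructs were used. With 1 array per group no difference has a replicate check or a test, and the error printed beside a difference is the one the scanner software models for the spots, carried to the log2 scale.

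Ensembl and RefSeq are separate annotations of the same genome. RefSeq keeps a smaller set of curated transcripts, whereas Ensembl also gives identifiers to many alternative splice forms, transcripts with retained introns, noncoding RNAs and pseudogene copies of abundant genes. A probe that is named by Ensembl alone can thus read a form of a gene that the RefSeq set does not hold, although this could not be checked here. The scanner files and the gene tables used here do not pair these identifiers with gene symbols, so the probes are described by their signals and annotation features, and no gene is named for them.

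Gli2, a zinc finger transcription factor of the Hedgehog pathway and the target of the shRNA, has 1 probe (RefSeq NM_001081125). It read 98.1 in the control and 57.9 with the Gli2 shRNA, 48.7% of the control after scaling (log2 difference -1.04 ± 0.22, software error). With normexp, a background correction that draws dim probes toward a common floor, the difference was -0.64, short of 2-fold. All 8 markers of neural stem and glioma cells (among them Sox2, Nes and Fabp7) were measured on both arrays, with signals of 189 to 82583 in the control and 117 to 97436 with the Gli2 shRNA. Of markers of other cells, 2 of 5 for microglia, 2 of 4 for endothelium, 0 of 4 for fibroblasts and pericytes, 3 of 4 for neurons, 4 of 4 for oligodendrocytes and 3 of 4 for lymphocytes were measured on both. Those measured included Csf1r of microglia and macrophages (390 and 432 in the control and with the Gli2 shRNA), Cd68 of the same cells (344 and 398), and the endothelial genes Pecam1 (34.0 and 40.1) and Kdr (72.5 and 62.8). The lymphocyte gene Cd4 read 1115 and 1286, and the neuronal gene Snap25 read 3250 and 3614. Signals here and below are unscaled, and the Gli2 shRNA array was brighter as a whole, with a 75th percentile of 399 against 329. After scaling, the log2 differences were -0.13 for Csf1r, -0.07 for Cd68, -0.04 for Pecam1, -0.48 for Kdr, -0.07 for Cd4 and -0.12 for Snap25. Ptprc, Cx3cr1, Cdh5 and Dcn were not well above background on either array. The part of other cells in the results given here was not tested.

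The share of Ensembl-named probes measured on both arrays lay between the shares of RefSeq messenger RNA and RefSeq noncoding RNA probes. A probe counts as measured on an array when the software marks it well above background. Of 9007 Ensembl-named probes with a usable spot on each array, 4478 (49.7%) were measured on both, 437 (4.85%) on the control array alone, 222 (2.46%) on the Gli2 shRNA array alone and 3870 (43.0%) on neither. Over all non-control probes 55.0% were measured on both. The share was 66.7% for RefSeq messenger RNAs (names starting with NM_), 46.6% for probes named by a genomic interval, 34.0% for AK clone accessions, 33.6% for RefSeq noncoding RNAs (NR_) and 21.96% for predicted noncoding RNAs (XR_). These shares describe 2 arrays, and differences between them were not tested.

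The Ensembl-named probes that were measured were mostly dim, and their numbers fell with rising signal up to a small second rise among very bright probes. Their median processed signal, the background-subtracted intensity before scaling, was 111 in the control and 137 with the Gli2 shRNA, against 444 and 548 for RefSeq messenger RNA probes. 27.7% had a mean signal of both arrays under 50, 43.9% lay from 50 to 500, 14.1% from 500 to 5000 and 14.3% at 5000 or more. Among all other probes the range from 500 to 5000 held 30.5% and the range from 5000 held 12.3%. A mean signal of 30000 or more was reached by 314 Ensembl-named probes (7.01%) and by 546 RefSeq messenger RNA probes (2.69%). Some of these bright probes were printed in 10 copies, and without these the shares were 4.17% and 2.26%.

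**Figure D1:**
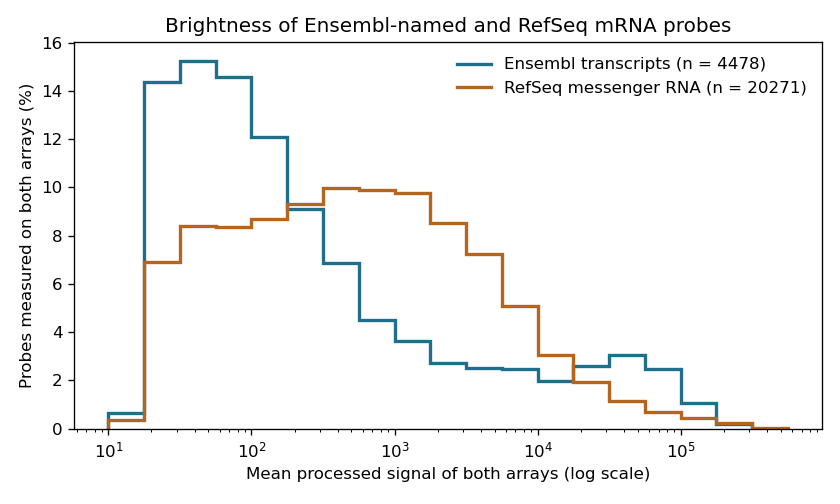
Share of the probes measured on both arrays (y axis, percent) by mean processed signal (x axis, log scale), for 4478 Ensembl-named probes and 20271 RefSeq messenger RNA probes. The Ensembl line peaks at low signal, falls through the middle and has a second, lower rise where 314 probes reach 30000 or more, while the RefSeq line has its top in the middle.

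The brightest Ensembl-named probes were nearly level between the arrays. The 10 brightest read 156747 to 245143 in the control and 183546 to 232188 with the Gli2 shRNA. Their differences (Gli2 shRNA minus control, each array scaled to its own 75th percentile, on the log2 scale) ran from -0.36 to 0.04, with a median of -0.23. That small lower median depends on the scaling, since it was -0.10 with median scaling and -0.04 with quantile normalization. None of the 642 Ensembl-named probes with a mean signal of 5000 or more was past 2-fold, beside 17 of 3283 other probes (0.518%) in that range. So few bright probes of any naming were past 2-fold that the count is not particular to the Ensembl-named ones. Differences of the 642 lay between -0.75 and 0.61, with an SD over probes of 0.14.

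Most Ensembl-named probes that were measured on both arrays were at similar levels in both cell cultures. Of the 4478 measured on both arrays, 53 (1.18%) were 2-fold or more higher with the Gli2 shRNA, beside 1.4% of all non-control probes. 78 (1.74%) were 2-fold or more lower, beside 1.78% of all. Together 131 (2.93%) were past 2-fold against a background of 3.19%, so the share was near that of the array as a whole, and 4347 (97.1%) lay within 2-fold. The 131 probes stand for 128 transcripts. The median difference was -0.04 for Ensembl-named probes and -0.02 for all non-control probes.

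The balance of higher and lower probes moved with the scaling. Higher probes made up 40.5% of the 131. With median scaling 75 were higher and 54 lower (58.1% higher), with cyclic loess 73 and 59 (55.3%) and with quantile normalization 67 and 68 (49.6%). Over all 31114 probes measured on both arrays the balance moved in the same way: 437 were higher and 554 lower, against 637 and 373 with median scaling, 545 and 439 with cyclic loess and 506 and 475 with quantile normalization. The share of all probes past 2-fold was 3.25%, 3.16% and 3.15% in that order. Median scaling shifted the centre of the whole array by 0.14 toward higher values. With normexp 10 Ensembl-named probes were higher and 13 lower (0.514%), beside 97 and 152 of all probes (0.8%). All 131 kept their direction with normexp, but only 22 of them were still past 2-fold.

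**Figure D2:**
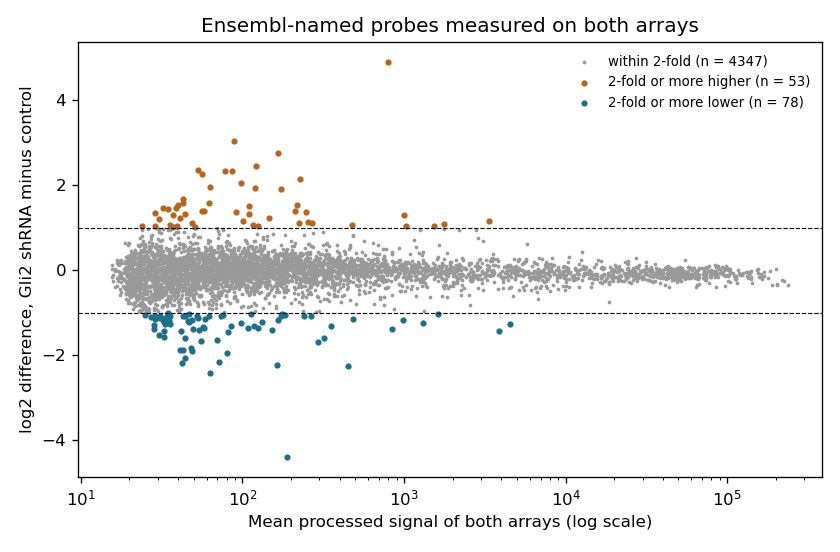
Log2 difference (y axis, Gli2 shRNA minus control) against mean processed signal of both arrays (x axis, log scale) for the 4478 Ensembl-named probes measured on both; dashed lines mark 2-fold. 53 probes lie above and 78 below the lines, nearly all at low signal, and none lies outside them at 5000 or more.

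The probes past 2-fold were mostly dim ones. 119 of the 131 (90.8%) had a mean signal under 500. Dim probes also made up most of the 860 other probes past 2-fold, with 272 under 50 and 436 from 50 to 500. The 53 higher Ensembl-named probes had a median signal of 29.4 in the control and 147 with the Gli2 shRNA, and the 78 lower ones had medians of 74.98 and 34.0. The lowest signal the software marked well above background was 12.8 in the control and 15.2 with the Gli2 shRNA, so the low side of many of these probes was near the limit of measurement. The median size of the 131 differences was 1.30 with a median software error of 0.26, and 71 of them exceeded 2-fold by more than their own error. Of the 131 probes, 31 reached 3-fold. Both counts were made for the Ensembl-named probes only.

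Within each range of brightness the shares past 2-fold of Ensembl-named and of other probes were within 1.1 percentage points of each other. Under a mean signal of 50 the share was 4.27% (53 of 1240) for Ensembl-named probes and 5.33% for all other probes. From 50 to 500 it was 3.36% (66 of 1964) and 4.31%. From 500 to 5000 it was 1.90% (12 of 632) and 1.66%, and from 5000 it was 0 of 642 and 17 of 3283. With 1 array per group these differences were not tested.

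**Figure D3:**
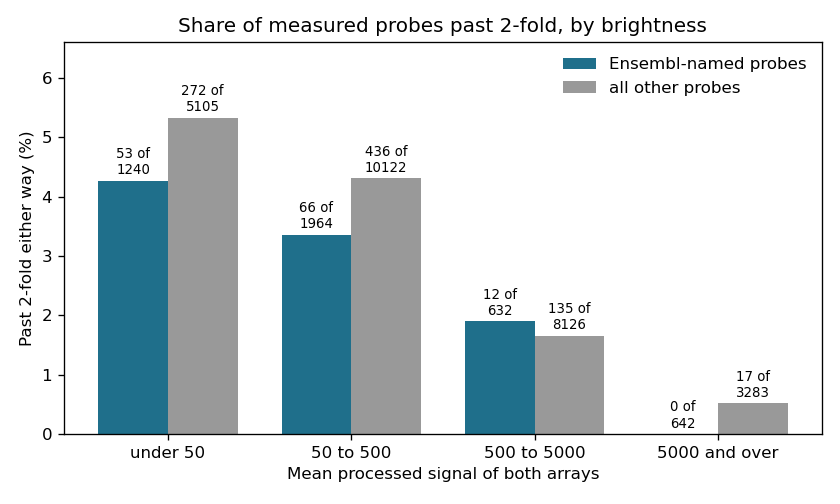
Percent of probes measured on both arrays that were past 2-fold either way (y axis) in 4 ranges of mean processed signal (x axis), for Ensembl-named probes and for all other probes, with the counts above the bars. The bars fall from 4.27% and 5.33% under a signal of 50 to 0 of 642 and 17 of 3283 at 5000 or more.

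The highest difference among Ensembl-named probes belonged to ENSMUST00000136751.1. Its probe read 43.0 in the control and 1544 with the Gli2 shRNA, a difference of 4.89 ± 0.23 (software error), or 29.6-fold higher. It stayed at 3.62 with normexp, and its Gli2 shRNA signal was the highest of the 10 probes ranked on this side. ENSMUST00000225144.1 had the lowest difference. It read 357 in the control and 20.7 with the Gli2 shRNA, -4.38 ± 0.31, or 20.9-fold lower, and -2.59 with normexp.

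Behind these probes the differences were smaller. The 10 highest, all at least 1.5-fold higher with normexp by the rule that ranked them, ran from 4.16-fold to 29.6-fold with a median of 5.06-fold. Their signals were 14.8 to 71.9 in the control and 91.2 to 1544 with the Gli2 shRNA. The 10 lowest ran from 3.69-fold to 20.9-fold lower with a median of 4.52-fold, with control signals of 64.6 to 718 and Gli2 shRNA signals of 17.7 to 182. All 20 remained past 2-fold with median scaling, quantile normalization and cyclic loess, and 8 of the 20 did with normexp.

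Where a transcript has several probes, their values can be set side by side, although whether those probes overlap is not known here. Of 276 such transcripts, 92 had all their probes measured on both arrays, 77 only some of them and 107 none. In those 92 the probes of a transcript differed from each other by a median of 0.14 in their log2 difference. The gap was 0.07 in the 25 transcripts whose dimmest probe had a mean signal of 500 or more, with 0.78 as its highest value, and 0.21 in the other 67. 4 transcripts had a gap of 1 or more.

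Among the 92, 6 transcripts had a probe past 2-fold, and 3 of the 6 had every probe past 2-fold in the same direction. ENSMUST00000064667.8 was lower on both of its probes. The first read 262 in the control and 67.9 with the Gli2 shRNA (-2.22 ± 0.22), and the second, a bright one, read 5319 and 2387 (-1.43 ± 0.20). With normexp these were -1.45 and -1.36, so this transcript was lower by more than 2-fold under that correction too.

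ENSMUST00000200270.1 was higher on both probes, from 24.2 to 148 (2.33 ± 0.28) and from 21.5 to 61.3 (1.23 ± 0.29). Both control signals were near the limit of measurement, and with normexp the values were 0.85 and 0.23. A further transcript was lower on both probes, by -1.32 ± 0.23 and -1.24 ± 0.22, and by -0.79 and -0.78 with normexp. In the 3 remaining transcripts 1 probe was past 2-fold and the other was not. Their pairs of differences were 2.32 and 0.17, -1.90 and 0.41, and 1.497 and -0.66, the last 2 of opposite sign, so the direction of these transcripts is not settled.

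**Figure D4:**
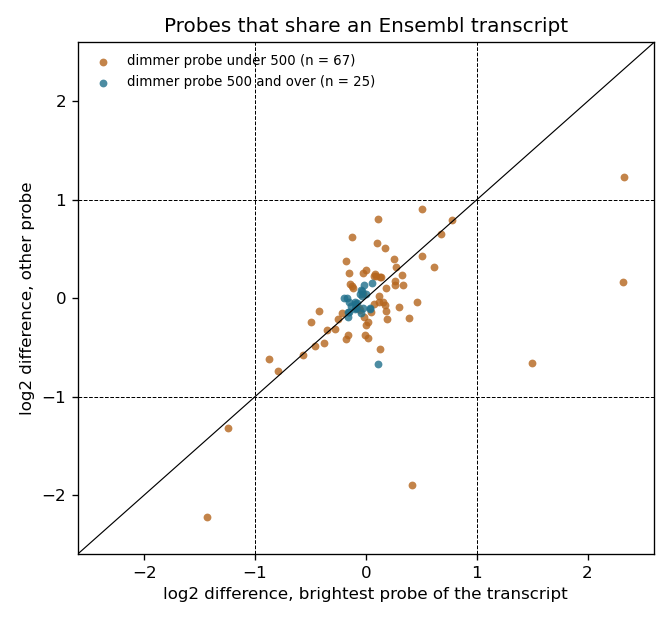
Log2 difference of the brightest probe of a transcript (x axis) against that of its other probe (y axis) for the 92 Ensembl transcripts with several probes measured on both arrays; the solid line is equality and dashed lines mark 2-fold. Points of transcripts whose dimmer probe reaches 500 lie at most 0.78 above or below the line, and 3 points lie past 2-fold on both axes in the same direction.

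Probes measured on 1 array only give a lower bound, in which the dim side takes its own value or the measurement limit of its array, whichever is higher. Of 222 Ensembl-named probes measured on the Gli2 shRNA array alone, 52 (23.4%) were at least 2-fold higher, beside 25.6% of all probes of that kind. Of 437 measured on the control array alone, 71 (16.2%) were at least 2-fold lower, beside 17.7%. The 5 highest bounds ran from at least 9.43-fold to at least 16.7-fold higher, with control signals of 2.77 to 10.6 and Gli2 shRNA signals of 146 to 259. The 5 on the other side ran from at least 8.48-fold to at least 14.7-fold lower, with control signals of 106 to 183 and Gli2 shRNA signals of 3.41 to 12.3. These bounds hold for the main processing only. With normexp the log2 differences were 1.08 to 1.92 for the 5 higher probes and -1.83 to -1.25 for the 5 lower ones. The counts of 52 and 71 fell to 8 and 10 with normexp. They were 63 and 46 with median scaling, 74 and 37 with quantile normalization and 67 and 37 with cyclic loess. No counts by bound over all probes are given for these alternatives. The shifts in these counts therefore cannot be read as particular to Ensembl-named probes.

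The array prints 300 of its non-control probes in 10 spots each, and 137 of these (45.7%) are named by Ensembl transcripts. Of the 137, 135 were measured on both arrays, with control signals of 21537 to 173286 (median 68712) and Gli2 shRNA signals of 15566 to 199187 (median 81077). Their spots differed little: the SD of log2 values over the spots of a probe had a median of 0.04 on either array and reached 0.09 at most. This is the precision of a bright spot on an array and says nothing of the spread between cultures.

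Among the 135, no probe was past 2-fold. Differences ran from -0.75 to 0.12 with a median of -0.06, and 97 lay below 0. For 36 of the 135 the spots of both arrays did not overlap, 32 of them lower and 4 higher with the Gli2 shRNA. No such count is given for the other 10-spot probes, so it cannot be read as particular to the Ensembl-named ones. The directions depend on the scaling. With median scaling 22 lay below 0, the median was 0.08, and the spots did not overlap for 55 probes, 4 lower and 51 higher. With quantile normalization and with cyclic loess 39 lay below 0, with medians of 0.05 and 0.05, and with normexp 75 did, with a median of -0.01. 1 probe stood away from the rest, with the lowest difference. It read 21537 in the control and 15566 with the Gli2 shRNA. Its scaled log2 values were 5.95 to 6.10 over the control spots and 5.18 to 5.35 over the Gli2 shRNA spots, a difference of -0.75 with an error over spots of 0.02. The next lowest was -0.39. The lowest value was -0.61 with median scaling, -0.67 with quantile normalization, -0.69 with cyclic loess and -0.71 with normexp. The 158 other 10-spot probes, with a median control signal of 63138, spread more widely, from -1.09 to 2.09 (SD over probes 0.29, against 0.11 for the Ensembl-named ones). Only the medians of signal are close. The sets were not matched for their dimmer probes, so the wider spread cannot be read as particular to the naming.

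Ensembl numbers its transcripts in the order in which they enter the annotation and raises the version after the dot when a transcript is revised. Numbers here ran from 153 to 233974 and versions from 1 to 16, and 5798 of the 9007 probes were at version 1. The very bright probes were unevenly spread along the numbers. In bins of 10000, a mean signal of 5000 or more was held by 63 of 124 measured probes (50.8%) from 70000 to 89999 and by 208 of 843 (24.7%) from 110000 to 129999. From 130000 to 159999 it was 42 of 1004 (4.18%), and from 180000 to 189999 it was 95 of 408 (23.3%). By version, 16.5% of the measured probes were that bright at version 1, 18.9% at versions 2 to 5 and 5.02% at version 6 or above. The ranges quoted were picked after the values were seen, and no test was made.

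The share past 2-fold was higher among probes with low transcript numbers, a difference that was not tested. Below 70000, a limit also set after seeing the values, 25 of 321 measured probes (7.79%) were past 2-fold, 10 higher and 15 lower. At 70000 and above it was 106 of 4157 (2.55%), 43 higher and 63 lower. Within ranges of brightness the shares were 10.3% against 3.92% under a signal of 50, 9.40% against 2.87% from 50 to 500 and 4.88% against 1.45% from 500 to 5000, and at 5000 or more none of the 22 and none of the 620 was past 2-fold. With normexp the counts fell to 6 of 321 (1.87%) and 17 of 4157 (0.409%). The bins below 70000 were uneven, with 0 of 23 past 2-fold from 0 to 9999 and 1 of 59 (1.69%) from 50000 to 59999. Above 70000, the bin from 90000 to 99999 had 6.49% (2 higher and 3 lower of 77). The last bin, from 230000, also had a share above the background, 7.92% (4 higher and 4 lower of 101).

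**Figure D5:**
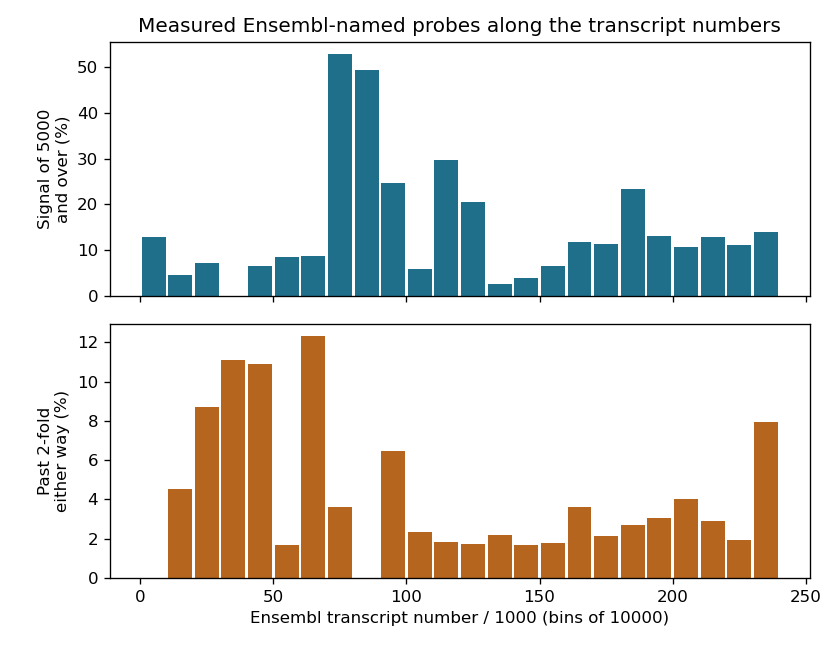
Ensembl-named probes measured on both arrays in bins of 10000 transcript numbers (x axis, given in units of 1000): the percent with a mean processed signal of 5000 or more (upper panel) and the percent past 2-fold either way (lower panel). The upper bars are tallest from 70000 to 89999, where 50.8% of probes are that bright, and the lower bars range from 0 to 12.3% below 70000, where 7.79% in all are past 2-fold.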

How the data were processed

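Per the labels, total RNA of 2 samples was labelled with Cy3 for Agilent arrays read in 1 colour. Per the file headers, Agilent Feature Extraction 12.1.0.3 (protocol GE1_1200_Jun14, design 074809, grid build mm9) made the deposited processed intensity of each spot, its error, background intensities and flags, and they give 1 slide and 1 scan for the pair of arrays. The authors' deposited value table (56743 rows, log2) equals the log2 processed intensity minus 8.36 for the control and 8.64 for the Gli2 shRNA array, with column medians of -3.55 and -3.69.

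Outlier spots were left out (126 and 120 of 59305), which left 56595 of the probes. Spots of a probe were averaged on the log2 scale, and a probe was measured where at least 0.5 of its spots were well above background. Each array was scaled to its 75th percentile (signals of 329 and 399). R 4.3.3 with limma 3.58.1 gave the alternatives (normexp with offset 50, quantile, cyclic loess), and Python 3.11.15 the counts. The counting code was run on simulated data, which checks the counting and not how often the 2-fold rule makes false calls. The size rule was 2-fold, with no test.

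The ranking rule takes the 10 highest and 10 lowest differences past 2-fold and at least 1.5-fold the same way with normexp, the 5 highest bounds each way, and the 10 brightest probes. Of the ranked transcripts only the first each way, and the one each way with both probes past 2-fold, are named, a choice made after the values were seen. Planned classes by gene symbol and comparisons with RefSeq probes of the same gene could not be made, because 0 Ensembl identifiers matched the gene table (GRCm38.p6). Markers and Gli2 were named through their RefSeq accessions in that table. Probes, lists and the split of brightness at 5000 were chosen with earlier results of these data known.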

Additional observations from a re-analysis of the deposited data

How the results depend on the processing

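The arrays' number, 1 per group, limits precision, and dim probes carry most of the calls. No paired analysis was possible because each group has 1 array. With normexp, 10 probes were higher and 13 lower (0.514% past 2-fold, beside 0.8% of all probes), and 8 and 10 by bound. Bounds numbered 63 higher and 46 lower with median scaling, 74 and 37 with quantile normalization and 67 and 37 with cyclic loess. A signal of at least 50 on both arrays kept 34.2% of probes, with 19 higher and 28 lower (1.53%). Without any filter on dim probes 293 were higher and 832 lower (12.5%). A 3-fold rule left 14 and 17 (0.692%). For these bounds, the signal filters and the 3-fold rule, no counts over all probes are given. These counts therefore cannot be read as particular to Ensembl-named probes. The median difference of -0.04 turned to 0.10 with median scaling and 0.01 with cyclic loess, so its sign is not settled. The counts of 2-fold probes with 1 probe per transcript (52 and 75) stayed within 1.5 times of the main ones. Since the 131 probes past 2-fold already stand for 128 transcripts, little change was possible, and this is no separate check. The authors' deposited table holds the same log2 intensities less nearly the same constants. Its identical counts (53 and 78) are thus no separate check. 12 of the 20 ranked probes fell within 2-fold with normexp, and none changed direction with normexp, median scaling, quantile normalization or cyclic loess. For transcript numbers below and from 70000, the shares past 2-fold were 6.23% and 2.62% with median scaling. These alternatives, and those for the probes printed in 10 spots, were chosen after seeing the data.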
